A study of Mus musculus with 4 samples.

Results

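The microRNAs (miRNAs) described here belong to the miR-297, miR-466, miR-467 and miR-669 families, most of whose hairpins lie inside the mouse gene Sfmbt2. They were read by 71 of the 1265 mouse miRNA probes on each array, chosen by name alone. Any probe with a name that began with mmu-miR-297, mmu-miR-466, mmu-miR-467 or mmu-miR-669, followed by a letter, a hyphen or the end of the name, was taken. The miR-297 family had 4 probes, miR-466 had 27, miR-467 had 13 and miR-669 had 28, with the probe for miR-466m-5p and miR-669m-5p counted in both of its families. Of these probes, 7 carried several miRNA names, so the 71 probes stood for 80 names.

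The samples were from L2-IL-1β mice, in which the L2 promoter of Epstein-Barr virus, active in the squamous epithelium of mouth, esophagus and forestomach, drives human interleukin-1β. These mice develop inflammation of the esophagus and then Barrett's esophagus, a columnar lining in place of the squamous one. Esophagus and serum were each measured at 28 and at 46 weeks of age, with 1 array for each of the 4 groups, so no difference below has a replicate check and no test was made. All 4 groups carried the transgene, were kept free of specific pathogens and were labelled as having Barrett's esophagus; mice without the transgene were not analysed here. How many mice an RNA sample stands for was not stated in the labels. RNA was extracted from esophagus with a mirVana kit and from serum with an miRNeasy Serum/Plasma kit, so the effect of the kit and that of the sample type cannot be told apart. In esophagus the miRNAs of squamous epithelium, miR-205-5p and miR-203-3p, had net signals of 1429 to 1945, against 18.7 to 179 in serum. The erythrocyte miRNA miR-451a was at 36871 at 28 weeks and 23648 at 46 weeks in serum, and at 86.9 and then 88.5 in esophagus. These levels match the labelled sample types.

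Sfmbt2 encodes a polycomb group protein and is an imprinted gene, expressed from the paternal allele in the early embryo and in placental tissue. An intron of the gene holds a large cluster of miRNA hairpins that expanded by duplication in rodents, and mice that lack the cluster have placental defects. Many of its miRNAs differ from each other by few bases, and many consist largely of UG or AC repeats. Each hairpin can give a miRNA from its 5′ side (5p arm) and from its 3′ side (3p arm). In mouse cells, miR-669a represses MyoD and so holds back muscle differentiation, miR-466l binds the mRNA of interleukin-10 in macrophages, and miR-467 represses thrombospondin-1. In hamster cells, miR-466h-5p promotes apoptosis.

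Names were matched to the RefSeq gene table, which holds 82 hairpin genes of these families, 72 of them within Sfmbt2 on chromosome 2. No miRNA gene of another family lies within Sfmbt2 there, since it holds 72 miRNA genes in all. A hairpin was matched for 70 of the 71 probes, miR-466a-5p being the exception. All matched hairpins of 56 probes lay within Sfmbt2. For 5 probes, those of miR-466f, miR-466f-3p, miR-466f-5p, miR-297a-5p and the shared 3p probe of miR-297b, miR-297a and miR-297c, some hairpins lay within Sfmbt2 and others elsewhere. The other 9 probes read miRNAs whose hairpins lie on other chromosomes. These 9 are called relatives outside the cluster here. Mir466i, which gives 2 of them, lies within Cdk13 on chromosome 13, and the others include Mir467f within Fxr2 on chromosome 11, Mir467g within Grk4 on chromosome 5 and Mir669n within Slc30a7 on chromosome 3.

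Mature sequences in the RefSeq table (build GRCm38.p6) were matched for 8 of the relatives outside the cluster. They are shown because the repeats they are built of are plain to see. No mature sequence was found for miR-466i-5p, the brightest member. The capitals mark the seed, bases 2 to 8, with which a miRNA pairs to its targets.
miR-466i-3p: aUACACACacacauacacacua
miR-467f: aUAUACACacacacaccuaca
miR-467g: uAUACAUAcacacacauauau
miR-466q: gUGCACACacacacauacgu
miR-466j: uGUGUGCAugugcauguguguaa
miR-466k: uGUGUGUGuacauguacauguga
miR-467h: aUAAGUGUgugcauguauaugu
miR-669n: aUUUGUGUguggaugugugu
They lie at chr13:17747552-17747573 on the plus strand (miR-466i-3p), chr11:69635419-69635439 on the minus strand (miR-467f), chr5:34732872-34732892 on the minus strand (miR-467g) and chr3:28419988-28420007 on the plus strand (miR-466q). The UG-rich ones lie on the plus strand at chr10:60960802-60960824 (miR-466j), chr3:85467396-85467418 (miR-466k), chr9:115381898-115381919 (miR-467h) and chr3:115979905-115979924 (miR-669n).

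No 2 of these 8 miRNAs shared a seed, although they share family names. The first 4 hold the motif ACACAC and the last 4 the motif UGUGUG, each searched on the miRNA strand only, with no overlap between the motifs. Among the other miRNAs on the array with a sequence, 1021 in all, 16 (1.57%) held UGUGUG and 7 (0.686%) held ACACAC. The longest unbroken alternation of A and C was 11 bases in miR-466i-3p, 12 in miR-467f and miR-466q and 9 in miR-467g, and that of U and G was 7 to 9 bases in the other 4. The share of G and U ran from 13.6% in miR-466i-3p to 90.0% in miR-669n, against a median of 54.5% in the other miRNAs. Both kinds of repeat were found among detected and undetected miRNAs: miR-466i-3p, miR-467f, miR-466j and miR-669n were above the detection limit on 4 arrays, miR-467g on 2, and miR-466k, miR-466q and miR-467h on 0.

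Levels are given as net signal, the median intensity of the spot minus the mean of the BLANK spots of the same array, in scanner units. A probe was called detected where its spot exceeded the mean of the 97 spots without probe (No Probe) by 2 SD, a limit at net signals of 9.06 at 28 weeks and 7.57 at 46 weeks for esophagus, and of 4.87 at 28 weeks and 7.48 at 46 weeks for serum. Brightness also depends on the probe, so an order of probes within an array is not an order of abundance.

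The families were dim on every array. In esophagus, 21 members at 28 weeks and 25 at 46 weeks were detected, or 29.6% and 35.2% of the 71, against 45.3% and 53.6% of all miRNA probes. In serum, 30 at 28 weeks and 25 at 46 weeks were detected, or 42.3% and 35.2%, against 60.4% and 46.6% of all. The median net signal of the members was 5.40 and 6.17 in esophagus and 3.89 and 4.53 in serum, and that of all other miRNA probes was 7.98, 8.99, 8.02 and 6.72 in the same order. Detected members together held between 0.126% and 0.165% of the net signal of all detected miRNAs. On each of the 4 arrays the share detected and the median were thus below those of the other miRNAs. On all 4 arrays, 15 members (21.1%) were detected against 38.3% of all miRNA probes, 39 members were detected on none, and the other 17 on 1 to 3 arrays. The authors' deposited table listed 46 and 57 of the members in esophagus and 54 and 48 in serum, so it kept many that were below the limit used here.

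Other imprinted and embryonic clusters were near the same shares. The Dlk1-Dio3 cluster, an imprinted miRNA cluster expressed from the maternal chromosome, had 103 probes, of which 25.2% and 39.8% were detected in esophagus and 51.5% and 27.2% in serum. Its brightest probe reached 290.6, against 67.2 for the brightest member of the Sfmbt2 families. The miR-290 cluster of embryonic stem cells had 4 or 5 of its 10 probes detected on each array.

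A control spot type bears on these low levels. The 8 spots named Negative Control 3 had a mean net signal of 8.90 and 9.56 in esophagus and 18.3 and 17.2 in serum, with SDs of 1.80 to 2.03 over the 8 spots of an array. Only 21 and 20 members in esophagus and 6 and 7 in serum were brighter than that mean, as were 45.8% and 47.4% of all miRNA probes in esophagus and 31.6% and 31.5% in serum. The spots named Negative Control 1 and 2 had lower means, between 1.97 and 5.17. What sequence these control spots carry was not stated in the files, and their part in the members' levels was not tested.

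**Figure D1:**
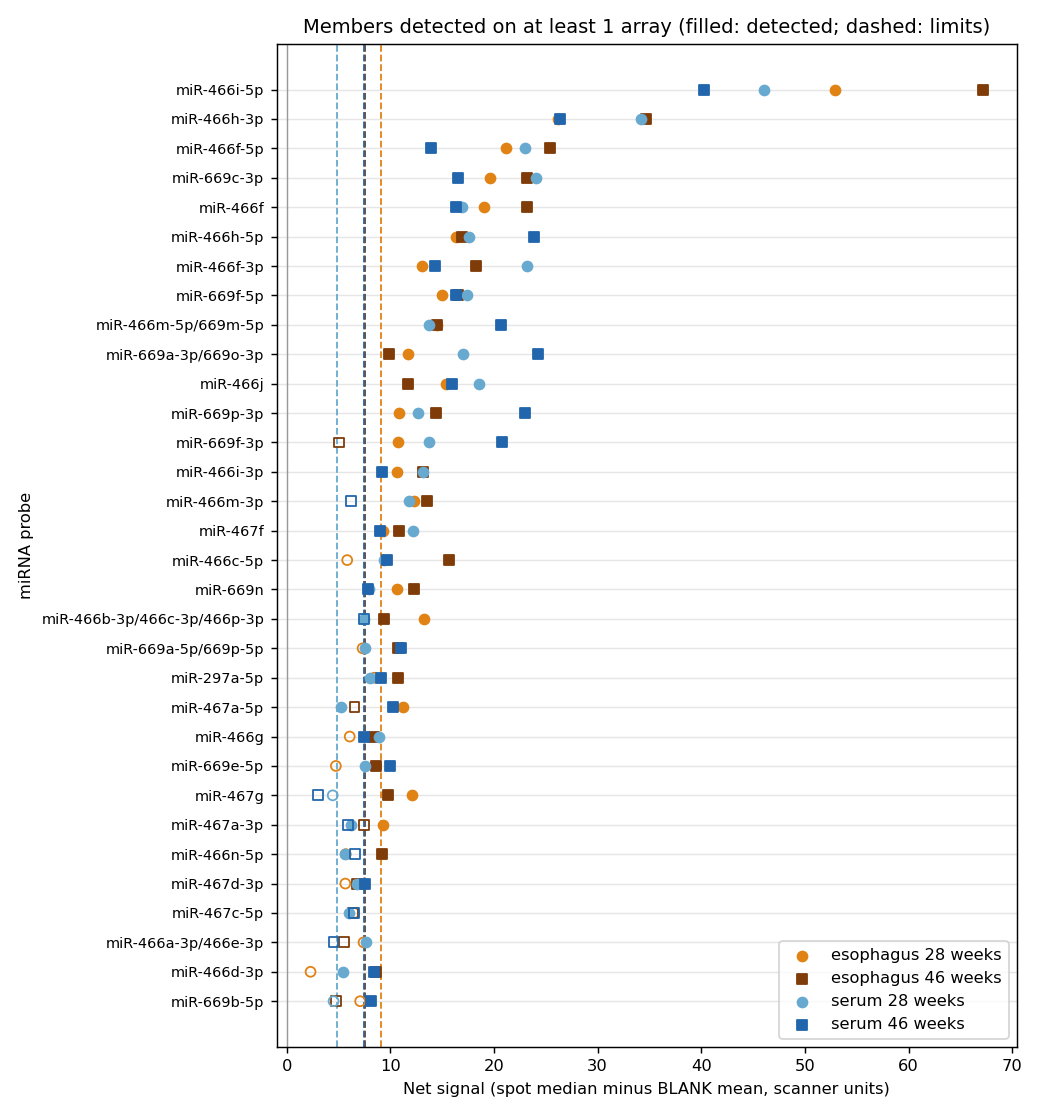
Net signal (horizontal axis, scanner units) of the 32 members detected on at least 1 array, 1 line per probe and 1 point per array, filled where detected; dashed lines are the detection limits of the arrays, those of esophagus and serum at 46 weeks lying close together. miR-466i-5p lies between 40.2 and 67.2 and every other member below 35.

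The brightest member on every array was miR-466i-5p, a relative outside the cluster whose hairpin lies within Cdk13, a cyclin-dependent kinase gene. Its net signal in esophagus was 52.9 at 28 weeks and 67.2 at 46 weeks, and in serum 46.0 at 28 weeks and 40.2 at 46 weeks, which placed it 202nd, 198th, 254th and 254th among the 1265 probes. It was higher in both esophagus samples than in both serum samples. The second on every array, miR-466h-3p, has its only hairpin within Sfmbt2, with 26.1 and 34.6 in esophagus and 34.2 and 26.3 in serum, and its sample types overlapped. The next brightest was miR-466f-5p in esophagus (21.2 and 25.4), miR-669c-3p in serum at 28 weeks (24.0) and the shared probe of miR-669a-3p and miR-669o-3p in serum at 46 weeks (24.3).

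Detection was more frequent among the relatives outside the cluster than among the probes with hairpins within Sfmbt2 only. Of the 56 probes with hairpins within Sfmbt2 only, 12 and 15 were detected in esophagus (21.4% and 26.8%) and 21 and 16 in serum (37.5% and 28.6%), and the brightest of them reached 34.6. Of the 9 probes with hairpins elsewhere only, 6 and 6 were detected in esophagus (66.7%) and 5 and 5 in serum (55.6%). Their median net signals were 10.6, 10.8, 7.90 and 7.89, against 4.49, 5.17, 3.48 and 4.32 for the 56. Of all miRNA probes, 45.3% and 53.6% were detected in esophagus and 60.4% and 46.6% in serum. The 56 were below these shares on every array, and the 9 were below them in serum at 28 weeks only. Of the 5 probes with hairpins in both places, 3 were detected in esophagus at 28 weeks and 4 on each other array. These are counts over few probes, some of which share a hairpin, and the difference was not tested. Near-identical miRNAs can bind the same probe, and how far that happened was not tested.

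**Figure D2:**
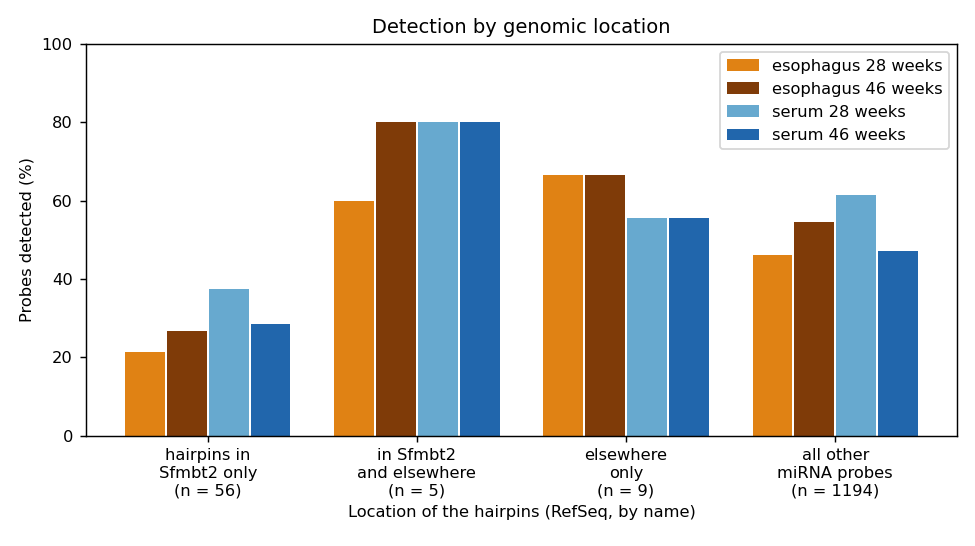
Percent of probes detected (vertical axis) on each array, by where RefSeq places the hairpins of the same name. The bars of the 56 probes with hairpins in Sfmbt2 only run from 21.4% to 37.5% and those of the 9 relatives outside the cluster from 55.6% to 66.7%.

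Among the families, miR-466 had the most detected probes, with 11 and 15 of 27 in esophagus and 16 and 12 in serum, and 9 detected on all 4 arrays. The miR-669 family had 7 and 8 of 28 in esophagus and 9 and 10 in serum, 6 of them on all arrays. The miR-467 family had 4 and 2 of 13 in esophagus and 5 and 3 in serum, and miR-467f was its only member on all 4 arrays. Of the miR-297 family, only miR-297a-5p was detected, with 10.7 in esophagus at 46 weeks and 8.06 and 9.09 in serum, and it fell short of the limit in esophagus at 28 weeks with 8.47.

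Members differ in the number of hairpin genes that carry their name. Of the 7 probes with 5 or more hairpins, 4 at 28 weeks and 3 at 46 weeks were detected in esophagus (57.1% and 42.9%), and 5 and 3 in serum (71.4% and 42.9%). Of the 53 probes with 1 hairpin, 12 and 15 were detected in esophagus (22.6% and 28.3%), and 18 and 15 in serum (34.0% and 28.3%). Of all miRNA probes, 45.3% and 53.6% were detected in esophagus and 60.4% and 46.6% in serum. The 7 were thus above the share of all at 28 weeks and below it at 46 weeks. Probes with numbers of hairpins between these groups are in neither, and the difference was not tested. The shared 5p probe of miR-669a and miR-669p, with 14 hairpins, the largest number of any member, had net signals of 7.33 and 10.8 in esophagus, and of 7.60 and 11.1 in serum. The shared 3p probe of miR-669a and miR-669o, with 13 hairpins, was detected on every array at 9.92 to 24.3. The probe of miR-466b-5p and miR-466o-5p, with 9 hairpins, was detected on no array, with values between -0.17 and 6.20.

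In the order of hairpins along Sfmbt2, the first 3 (Mir466m, Mir466f-1 and Mir669f) each had a probe detected on all arrays. Near the other end, Mir466h, the 67th of 72, had both of its probes detected on all arrays and Mir297a-4, the 70th, had a probe detected on 3, while Mir466l, the 69th, and Mir669i and Mir669h, the 71st and 72nd, had none detected on any. Hairpins with and without a detected probe were thus interspersed. Some of these probes also match other hairpins, those of Mir466f-1 and Mir297a-4 also outside Sfmbt2. Which of the matched hairpins gave the signal cannot be told. miR-466l-3p, which in macrophages binds the interleukin-10 mRNA, was between -1.71 and 0.62, so it was not detectable at this signal in either sample type, and miR-466l-5p was between 0.03 and 5.84.

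Of 30 probes for 5p arms, 6 and 10 were detected in esophagus (20.0% and 33.3%) and 12 and 11 in serum (40.0% and 36.7%). Of 29 probes for 3p arms, 10 and 9 were detected in esophagus (34.5% and 31.0%) and 13 and 9 in serum (44.8% and 31.0%). Names without an arm, such as miR-466j or miR-669n, made up the other 12 probes, of which 5 or 6 were detected on each array. The counts of 6 5p and 10 3p arms in esophagus at 28 weeks turned to 21 and 15 with a limit at the BLANK mean plus 2 SD, and were 6 and 6 at the No Probe mean plus 3 SD. Among other miRNAs on that array 47.3% of 452 5p arms and 41.6% of 461 3p arms were detected. The 3 other arrays had 9 to 13 detected arms of either kind. For the other miRNAs the shares on those arrays lay between 49.6% and 61.5% for 5p arms and between 43.8% and 59.7% for 3p arms.

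Both arms were on the array for 33 hairpin names. Both were detected on 6 and 7 of them in esophagus and on 9 and 6 in serum, only the 5p arm on 1, 5, 5 and 7, only the 3p arm on 7, 5, 8 and 4, and neither on 19, 16, 11 and 16 in the same order. Over the arrays, 3 hairpins (miR-466i, miR-466h and miR-466f) had both arms detected on all 4, 1 (miR-669m) only its 5p arm on all 4, and 2 (miR-669c and miR-669o) only the 3p arm on all 4. On no array was an arm detected for 10 hairpins, and the other 17 varied between arrays. Several probes serve more than 1 hairpin name, such as the shared 3p probe of miR-669a and miR-669o, so these hairpins are not independent.

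**Figure D3:**
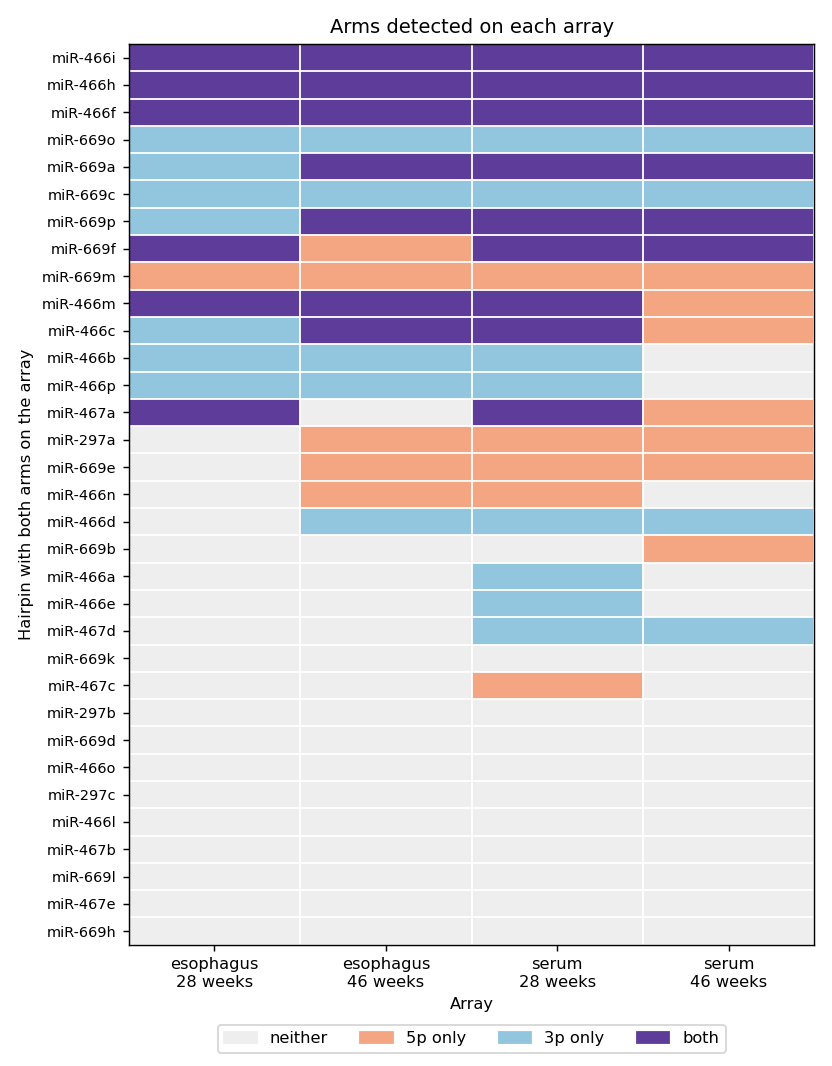
Arms detected on each array (columns) for the 33 hairpin names with both arms on the array (rows), ordered by the brightest net signal of either arm. The rows of miR-466i, miR-466h and miR-466f are filled for both arms on all 4 arrays, and 10 rows are empty throughout.

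The arms of single hairpins are given side by side and not ranked, because they are read by different probes. For miR-466i, the 3p arm printed above was at 10.7, 13.2, 13.2 and 9.24 on the arrays where the 5p arm was at 52.9, 67.2, 46.0 and 40.2. For miR-466h, the 5p arm was at 16.3 at 28 weeks and 16.9 at 46 weeks in esophagus, and at 17.6 and 23.8 in serum, and the 3p arm as given above. For miR-466f, the 5p arm was at 21.2 and 25.4 in esophagus, and at 23.0 and 13.9 in serum, where it was lower at 46 weeks. The 3p arm was at 13.1 and 18.3 in esophagus, and at 23.2 and 14.3 in serum, also lower at 46 weeks.

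The 3p arm of miR-669c was at 19.6 at 28 weeks and 23.2 at 46 weeks in esophagus, and at 24.0 and 16.6 in serum, while its 5p arm stayed between 4.02 and 6.35, below the limit throughout. The 5p arm shared by miR-466m and miR-669m was at 14.5 at both ages in esophagus, and at 13.7 at 28 weeks and 20.6 at 46 weeks in serum. The 3p arm of miR-669m was between -1.13 and 5.40, and that of miR-466m was at 12.3, 13.5, 11.8 and 6.24, undetected in serum at 46 weeks alone. miR-669f had a steady 5p arm (15.0, 16.6, 17.4 and 16.4) and a 3p arm that ranged from 5.09 in esophagus at 46 weeks to 20.8 in serum at the same age.

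The comparison of ages asked whether the families changed in esophagus and in serum between 28 and 46 weeks. Each array was divided by the median net signal of the miRNAs detected on both arrays compared, and differences are log2 values at 46 weeks minus 28 weeks. The SD given with a difference is spot noise only, from the No Probe and spike-in spots of the arrays, and leaves out all variation between mice, extractions and hybridisations. Members that passed the detection limit at both ages are compared. A dim member was more likely to pass in serum if it was brighter at 46 weeks, where the limit was higher. In esophagus the limit was higher at 28 weeks, so a dim member was more likely to pass if it was brighter then.

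In esophagus the members compared differed by less than 2-fold between the ages. Of 18 members detected at both ages, 0 passed 2-fold, which 0.542% of the 554 miRNAs detected at both ages did, 0.181% higher and 0.361% lower at 46 weeks. With so low a share over all, a count of 0 in 18 shows little about the members. A dim member that differed by 2-fold would often fall below the limit at 1 age and so not be compared. miR-466c-5p, at 5.85 and 15.7, was left out in this way. The 18 differences ran from -0.81 to 0.18, with 5 higher (27.8%) and 13 lower at 46 weeks and a median of -0.09. Over all 554, 40.4% were higher and the median was -0.07. Without scaling 14 of the 18 were higher (77.8%), against 80.7% of all, and with spike-in scaling 8 (44.4%), against 48.9%. Without any detection limit, 46 of the 71 members had a higher net signal at 46 weeks (64.8%), against 65.2% of all miRNA probes. At 1.5-fold, 0 were higher (2.53% of all) and 3 were lower (4.69% of all). The lower 3 were the shared 3p probe of miR-466b, miR-466c and miR-466p (13.3 at 28 weeks and 9.35 at 46 weeks, a difference of -0.81, SD 0.38), miR-466j (15.4 and 11.7, -0.69, SD 0.31) and miR-467g (12.1 and 9.79, -0.61, SD 0.38). The next were the shared 3p probe of miR-669a and miR-669o (11.7 and 9.92, -0.54, SD 0.38) and the shared 5p probe of miR-466m and miR-669m (14.5 and 14.5, -0.30, SD 0.29). The division by the median adds to these decreases, because that median was 29.9 at 28 weeks and 36.9 at 46 weeks.

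The largest increase in esophagus was that of miR-466f-3p (13.1 and 18.3, 0.18, SD 0.28), followed by miR-669p-3p at 0.10 (SD 0.34), miR-466h-3p at 0.10 (SD 0.16), miR-466i-5p at 0.04 (SD 0.11) and miR-466i-3p at 0.004 (SD 0.35). None of these increases exceeded its spot noise. Only 2 of the 18 differences exceeded 2 spot-noise SDs, both of them decreases. Such a decrease was seen in 19.9% of all miRNAs detected at both ages and such an increase in 9.39%.

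In serum the differences were wider. Of 24 members detected at both ages, 2 passed 2-fold, both higher at 46 weeks (8.33%), against 7.75% of the 581 miRNAs that were detected at both ages. In the other direction 0 members and 4.13% of all passed. The 2 were miR-467a-5p, a member of the family known to repress thrombospondin-1, with 5.23 at 28 weeks and 10.2 at 46 weeks (difference 1.14, SD 0.51), and miR-669p-3p with 12.7 and 23.0 (1.02, SD 0.24). The count of 2 was 1 or 0 under most other scalings and background corrections. With the arrays scaled to the spike-in spots it was 5 of 24, all of them lower at 46 weeks, as were 167 of the 581 miRNAs. The background corrections with the normexp method also brought the difference of miR-467a-5p near 0, to -0.02 with the local background. That method adds an offset of 50 to each signal before the log, which pulls differences of dim probes toward 0. Members this dim could hardly pass 2-fold with it.

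At 1.5-fold, 8 members were higher in serum at 46 weeks (33.3%, against 18.4% of all) and 0 lower (12.0% of all). Beside those 2 they included miR-466d-3p (5.42 and 8.40, 0.80, SD 0.55), miR-669f-3p (13.7 and 20.8, 0.77, SD 0.24), the shared 5p probe of miR-466m and miR-669m (13.7 and 20.6, 0.76, SD 0.24) and the shared 3p probe of miR-669a and miR-669o (17.0 and 24.3, 0.68, SD 0.21). The largest decreases were those of miR-466f-5p (23.0 and 13.9, -0.56, SD 0.27), miR-466f-3p (23.2 and 14.3, -0.53, SD 0.26), miR-669c-3p (24.0 and 16.6, -0.37, SD 0.24), miR-466i-3p (-0.35, SD 0.39) and miR-467f (-0.26, SD 0.41). Beyond 2 spot-noise SDs, 6 members were higher and 2 lower, or 25% and 8.33%, against 24.4% and 20.7% of all.

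**Figure D4:**
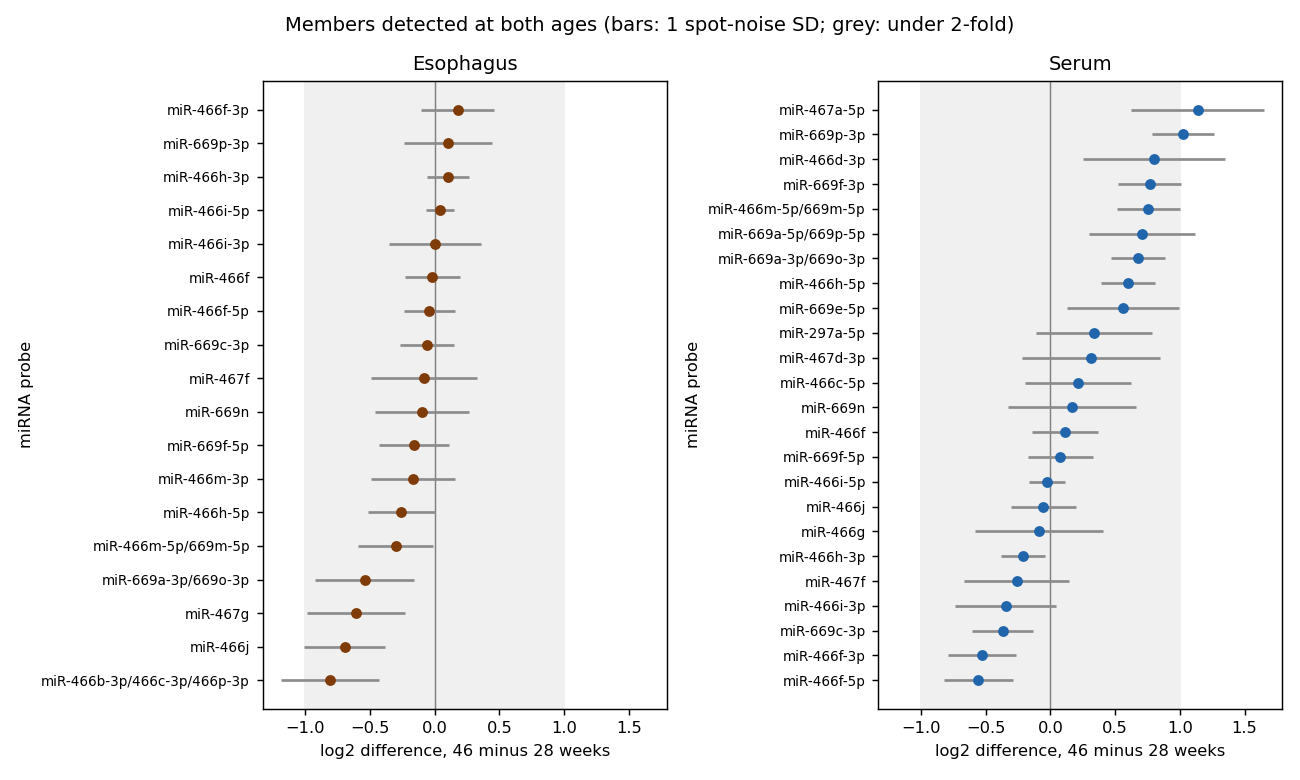
Log2 difference at 46 minus 28 weeks (horizontal axis, median-scaled) of the members detected at both ages, 18 in esophagus and 24 in serum, 1 point per probe, with bars of 1 spot-noise SD and the range under 2-fold in grey. All 18 points in esophagus lie in the grey range, and 2 points in serum lie above it.

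In serum the counts of higher and lower members differed between families and locations. Of 9 miR-669 probes detected at both ages, 8 were higher at 46 weeks, with a median difference of 0.68, and of 12 miR-466 probes 5 were higher, with a median of -0.04. Of the 15 probes with hairpins within Sfmbt2 only, 12 were higher, with a median of 0.60, and of the 5 relatives outside the cluster 1 was higher, with a median of -0.05. Over all 581 miRNAs 52.2% were higher and the median was 0.03. Of the 15, 5 were higher with spike-in scaling (33.3%, median -0.15), against 12.7% of all (median -0.72). With normexp and the local background 8 of the 15 were higher (53.3%, median 0.04, shrunk by the offset), against 47.7% of all. Without any detection limit, 31 of the 56 probes with hairpins within Sfmbt2 only had a higher net signal at 46 weeks (55.4%), against 37.6% of all miRNA probes. Of these 56, 34 were detected on no array, so this count shows little. With spike-in scaling, 3 of the 9 miR-669 probes were higher and their median was -0.08, while the median of all miRNAs was -0.72. With the authors' deposited table, 6 of 9 were higher, with a median of 0.38, against a median of -0.26 over all. In both of these, as with the main scaling, 8 of the 9 lay above the median of all. Both settings shift all differences by nearly the same amount, so this count could hardly change with them. With normexp and the local background 5 of the 9 lay above the median of all, and the miR-669 median, shrunk by the offset, was 0.06. Without any detection limit, 14 of all 28 miR-669 probes (50%) had a higher net signal in serum at 46 weeks, against 37.6% of all miRNA probes. Of these 28, 18 were detected on no array, so this count also shows little. Tissue markers also moved between the serum arrays: of 15 marker miRNAs, 6 had a higher and 9 a lower net signal at 46 weeks, with the hepatocyte miRNA miR-122-5p at 591 and 70.0, the muscle miRNA miR-1a-3p at 246 and 23.9, and the squamous miRNA miR-205-5p at 35.4 and 179. Their part in the members' differences was not tested, nor was the pattern itself, which was noticed in these data.

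Some members passed the limit at 1 age only. In esophagus these were 3 at 28 weeks and 7 at 46 weeks, against 19 and 124 of all miRNAs. miR-467a-5p was at 11.2 in esophagus at 28 weeks and 6.56 at 46 weeks, at least 1.82-fold lower after scaling, miR-669f-3p was at 10.8 and 5.09, at least 1.75-fold lower, and miR-467a-3p was at 9.26 and 7.44, at least 1.51-fold lower. miR-466c-5p was the brightest detected only at 46 weeks, at 15.7 against 5.85, at least 1.40-fold higher. The shared 5p probe of miR-669a and miR-669p (10.8 against 7.33) and miR-297a-5p (10.7 against 8.47) followed, without a lower bound above 1-fold. A bound, here and for serum below, sets the dim value at the detection limit of its array. It takes the bright value as exact, leaves out spot noise and uses the median scaling, so it is not a firm minimum. For miR-467a-3p the bright value of 9.26 was just above its limit of 9.06, with a No Probe SD of 2.01 on that array.

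In serum 6 members passed at 28 weeks only and 1 at 46 weeks only, against 183 and 8 of all miRNAs. miR-466m-3p was the brightest of the 6, at 11.8 and 6.24, at least 1.40-fold lower at 46 weeks. The shared 3p probes of miR-466a and miR-466e (7.67 and 4.53) and of miR-466b, miR-466c and miR-466p (7.47 and 7.44) followed, with no bound. The single member detected at 46 weeks only was miR-669b-5p, at 8.17 against 4.53, at least 1.87-fold higher.

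The age differences in esophagus and serum can be set side by side for the 15 members detected on all 4 arrays. Their signs were opposite for 10 and the same for 5, and 0 exceeded 2 spot-noise SDs in both sample types. As examples, the shared 3p probe of miR-669a and miR-669o was at -0.54 (SD 0.38) in esophagus and 0.68 (SD 0.21) in serum. miR-466f-3p was at 0.18 (SD 0.28) and -0.53 (SD 0.26). miR-669p-3p was higher at 46 weeks in both, at 0.10 (SD 0.34) and 1.02 (SD 0.24), the first within its spot noise.

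Between sample types, only members detected on all 4 arrays were compared, many of them near the limit. Apart from miR-466i-5p and miR-466h-3p these reached at most 25.4, against detection limits of 4.87 to 9.06. A dim member could thus hardly differ by 4-fold and still be detected throughout, which limits what the counts of 0 show. Of the 15 members detected on all 4 arrays, 0 differed by 4-fold at both ages, against 6.39% of the 485 miRNAs detected on all arrays that were higher in esophagus and 4.54% that were higher in serum. At 2-fold at both ages there were also 0, against 16.7% and 11.1%. The median difference, esophagus minus serum after scaling, was 0.31 at 28 weeks and 0.33 at 46 weeks, against 0.15 and 0.11 over all.

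This direction depended on the scaling: at 28 weeks the members' median was -0.23 without scaling, -0.62 with spike-in scaling and -0.16 in the authors' deposited table. At both ages 8 of the 15 members were higher in esophagus, against 220 of the 485 miRNAs, and 1 was higher in serum, against 167 of 485. The 8 became 3 without scaling, 1 with spike-in scaling and 3 in the authors' deposited table. The largest differences toward esophagus were those of miR-466i-5p (0.74 at 28 weeks and 0.71 at 46 weeks), miR-669n (0.97 and 0.61), miR-466f (0.71 and 0.48), miR-466f-5p (0.42 and 0.84) and miR-669c-3p (0.24 and 0.46). With spike-in scaling the differences of miR-466i-5p, miR-466f, miR-466f-5p and miR-669c-3p at 28 weeks were below 0, at -0.19, -0.22, -0.51 and -0.69. The shared 3p probe of miR-669a and miR-669o was level at 28 weeks (-0.0007) and higher in serum at 46 weeks (-1.32), where its net signal was 9.92 in esophagus and 24.3 in serum.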

How the data were processed

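Per the labels' protocols, total RNA was labelled with Hy5 for Toray 3D-Gene arrays, read in 1 colour. Per the file headers, the deposited scanner files hold median intensities of the spots and of their surroundings, read at 3 gains and joined by a line, without background correction or normalization. Each array has 3200 spots, of which 1664 are BLANK. Set against these, the authors' deposited value table holds intensities that are a linear rescaling of the same values, with a median of 25 per array. Scanner software and genome build were not stated in the labels or files.

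Net signal, detection and scaling were computed as described above, with Python 3.11.15, numpy 2.4.6, pandas 2.3.3 and matplotlib 3.10.9. Normexp with an offset of 50 in limma 3.58.1 (R 4.3.3, jsonlite 2.0.0) was an alternative, as were other scalings, limits and folds. The 2-fold call between ages and the 4-fold call between sample types involve no test. The number of arrays limits the precision. The calculation was tested on simulated data with 4-fold changes, none of them placed in the dimmest probes. That test does not cover the 2-fold and 1.5-fold calls between ages among dim members. Members and comparison lists were chosen with earlier results of these data known. Members given with values were the 3 brightest per array, the 5 largest differences per direction, the 3 brightest of 1 age only, and hairpins with both arms detected. Others were chosen after their values were seen: miR-466l as a miRNA with a known target, and examples of copy number, order and arms. Array age groups come from the labels, and 1 spot marked bad by the scanner, no member, was left out.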

Additional observations from a re-analysis of the deposited data

How the results depend on the processing

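No paired analysis was possible because each group has 1 array and no result comes from a test. A limit at the BLANK mean plus 2 SD left 43 members (28 weeks) and 48 members (46 weeks) detected in esophagus, and 50 and then 40 in serum, against 76.9%, 74.2%, 79.1% and 67.4% of all miRNA probes. The 5p arms were then 21, 24, 21 and 18, and the 3p arms 15, 17, 21 and 16, so the balance of the arms turned in esophagus at 28 weeks. With the No Probe mean plus 3 SD, 6 3p arms were detected in esophagus at 28 weeks. Negative Control 3 plus 2 SD, chosen after the data were seen, left 11, 12, 5 and 5 members, against 36.8%, 39.1%, 29.1% and 27.6% of all. The other counts detected stayed within 1.5 times. Between ages in esophagus, members past 2-fold were 3 with the BLANK limit and 1 when the mean of both arrays had to pass the limit (added after the data were seen), and 3 passed 1.5-fold. In serum the count of 2 became 0 without scaling, with normexp from either background and in the authors' deposited table. It became 1 with quantile normalization, with scaling to a median difference of 0 and with the limit on the mean (the last 2 added), 5 with the spike-in scaling, all lower at 46 weeks, 5 with the BLANK limit, all higher, and 8 at 1.5-fold. Over all miRNAs in serum, 45 were 2-fold higher and 24 lower; this was 29 and 36 without scaling, 5 and 167 with the spike-in scaling, and 22 and 48 in the authors' deposited table. miR-467a-5p in serum turned to -0.017 with normexp and the local background. With normexp and the BLANK mean, at the same offset, miR-467a-5p was at 0.14. The offset of 50, added before the log, pulls differences of dim members toward 0. They could hardly pass 2-fold with normexp, so its counts of 0 show little. What else lay behind these changes was not tested. Counts between esophagus and serum stayed at 0 under all alternatives run. Signal over background limits every value, since 39 members never passed the limit.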
